A study of Homo sapiens with 36 samples.

Results

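The activin, inhibin and follistatin genes encode a family of secreted signals together with their receptors and the proteins that bind and block them. Of this family, 8 genes were followed in A549 cells during exposure to IL-1β and after its withdrawal. They were INHBA, INHBB and INHBE, which encode ligand subunits, FST and FSTL3, which encode inhibitors, and ACVR1B, ACVR2A and ACVR2B, which encode receptors. The 8 genes were chosen by symbol from the 63677 Ensembl genes in the count tables, with INHBB singled out by its own counts because it was lower still at day 21 of exposure than at day 6. The INHBB values at those time points, and the differences that use them, are therefore given as a description with no test. Of the 8 genes, 6 had enough reads to be tested, and INHBA and FST had too few.

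A549 is an established line from a human lung adenocarcinoma. Cells were grown with IL-1β, an inflammatory cytokine, at 1 ng/ml for 21 days and then without it for 30 more days, while control cells were never given IL-1β. No group carried a genetic change or received another agent, and the line is the only one measured here. Both kinds of cells were sampled 3 times with IL-1β present (days 6, 15 and 21) and 3 times once it had been withdrawn (days 6, 15 and 30), with 3 biological replicates in each of the 12 groups. The labels do not say whether replicates were separate cultures, so the p-values measure the spread between these samples, which may be partly technical.

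Activins are dimers of β subunits, and inhibins pair a β subunit with the α subunit encoded by INHA. An activin binds a type II receptor (ACVR2A or ACVR2B), which then activates the type I receptor ACVR1B, and the signal passes to the nucleus through SMAD2 and SMAD3. Follistatin (FST) and its relative FSTL3 wrap around activin and keep it from its receptors. In epithelial tissues, the lung included, the pathway is known for its part in wound repair, inflammation and fibrosis.

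The libraries held 9116032 to 23570026 counts on genes (median 15902700). Mitochondrial genes took over 10% of the counts (11.75% to 24.62%) in 11 of the 36 libraries, against 5.61% to 7.75% in the other 25. These 11 libraries comprised 6 of control cells and 5 of cells given IL-1β, 8 were collected after withdrawal, and 8 were replicate 2. INHBB, FSTL3, ACVR1B and ACVR2A are given below with and without these libraries. Without them only control replicate 3 was left at day 6 after withdrawal, and only control replicate 1 at day 15. Values there then rest on control cells without a replicate, and no p is given for them.

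INHBB was lower with IL-1β at all 6 time points, and it was the only gene of the 6 tested that passed both thresholds (an adjusted p under 0.05 in edgeR's quasi-likelihood test, and a fold change over 2) at any of them. Over the 19180 genes tested, the thresholds were passed by 2.77%, 4.24% and 4.26% with IL-1β present (days 6, 15 and 21), and by 1.8%, 0.954% and 0.897% at days 6, 15 and 30 after withdrawal. With INHBB chosen on days 6 and 21, its calls there carry no weight, and of the other 5 tested genes 0 were called at each time point. For these 6 genes the median log2 fold change stood at -0.14, -0.74 and -0.53 with IL-1β present and at -0.31, -0.31 and -0.11 after withdrawal, while that of all genes lay between -0.021 and 0.023. Because INHBB and the choice of genes enter these medians, they describe the 6 genes and nothing more.

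**Figure D1:**
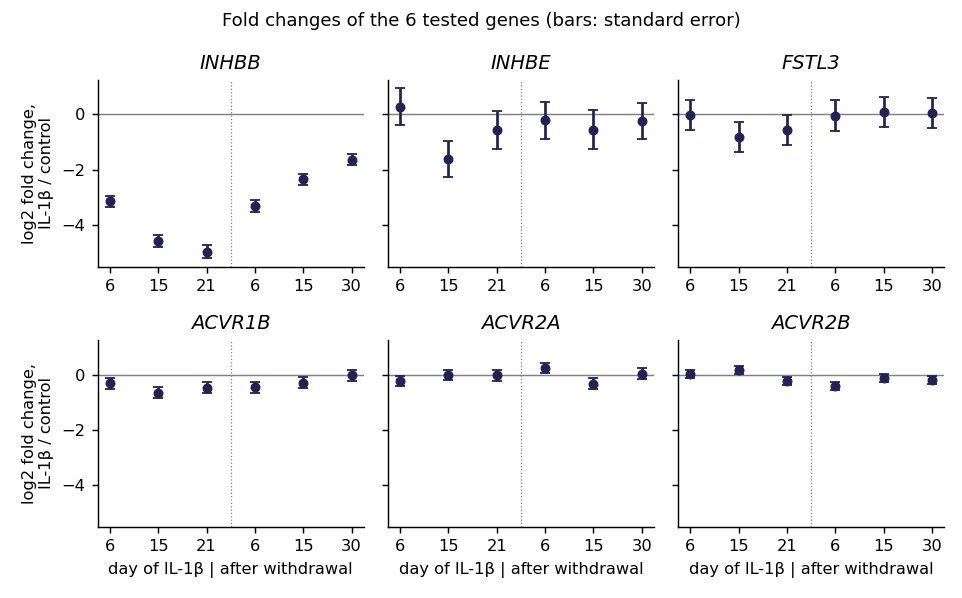
Log2 fold change of IL-1β against untreated control cells (vertical axis) for the 6 tested genes at the 6 time points (horizontal axis, days of exposure left and days after withdrawal right of the dotted line). Points are estimates from edgeR and bars their standard errors. INHBB runs from -3.15 to -4.97 during exposure and back to -1.64, while ACVR1B, ACVR2A and ACVR2B stay between -0.65 and 0.24.

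The groups were also compared library by library. The 3 IL-1β libraries did not overlap the 3 controls for 3 of the 6 tested genes at each of the first 5 time points and for 2 of 6 at day 30 after withdrawal. Among all tested genes the same was seen for 21.8%, 25.4% and 29% at days 6, 15 and 21 of exposure and for 10.8%, 10.9% and 11.9% at days 6, 15 and 30 after withdrawal. The genes concerned were INHBB at all 6 time points, ACVR1B at 5, ACVR2B at 3, FSTL3 at 2 and ACVR2A at 1, all with IL-1β below control. Because INHBB was chosen on days 6 and 21 of exposure, its separation there carries no weight in these counts. The others there were ACVR1B and ACVR2A at day 6 and ACVR1B and FSTL3 at day 21.

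Levels between genes were compared per kilobase of exon (RPKM) in the 18 control libraries. FSTL3 was the most abundant at 57.1 ± 20.65 RPKM (SD, n = 18), followed by INHBB at 45.2 ± 6.57. Their ranges, 13.96 to 84.9 and 36.1 to 60.3, overlapped. ACVR1B stood at 8.57 ± 1.47, ACVR2B at 1.65 ± 0.181 and ACVR2A at 1.296 ± 0.209, and the ranges of the 2 type II receptors overlapped. INHBE lay at 0.177 ± 0.132, FST at 0.0358 ± 0.0423 and INHBA at 0.0176 ± 0.0178. Of the 3 ligand subunits only INHBB exceeded 1 RPKM in a control library, and of the 2 inhibitors only FSTL3 did.

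INHBB encodes the βB subunit of activin B, and lies on chromosome 2 at chr2:121103712-121109379 (plus strand, GRCh37). In control cells it was at 163, 168 and 164 CPM (the reads of a gene scaled to the depth of its library) at day 6, and with IL-1β at 19.3, 20.4 and 16.3 CPM. At day 15 the controls were at 132, 127 and 155 CPM and the IL-1β libraries at 5.46, 5.17 and 6.62 CPM. At day 21 the controls were at 116, 117 and 148 CPM and the IL-1β libraries at 3.80, 3.22 and 4.97 CPM. No IL-1β library came near a control, and INHBB was still counted with at least 43 reads in each of the 36 libraries. The IL-1β mean was 11.3% of the control mean at day 6, 4.17% at day 15 and 3.15% at day 21, or 8.85-fold, 24-fold and 31.7-fold lower. At day 15 INHBB fell with a log2 fold change of -4.59 (SE 0.22, adjusted p = 4.07e-14). Its day 15 values were not those it was singled out by, but they lie between days 6 and 21 of the same exposure. This p is therefore not independent of the choice. At days 6 and 21 the log2 fold changes were -3.15 (SE 0.21) and -4.97 (SE 0.23), and the change between them was -1.825 (SE 0.28), given as a description. In bulk RNA, fewer cells with INHBB and less INHBB RNA per cell cannot be told apart.

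After withdrawal INHBB was higher at each later collection but remained below control. At day 6 after withdrawal the controls were at 145, 118 and 161 CPM and the cells previously given IL-1β at 12.2, 14.7 and 16.0 CPM. At day 15 the controls were at 124, 139 and 158 CPM, against 27.1, 22.7 and 32.4 CPM. At day 30 the controls were at 143, 136 and 193 CPM, against 41.4, 41.9 and 68.6 CPM. The groups remained apart at all 3 time points, with means at 10.1%, 19.5% and 32.2% of control. The log2 fold changes were -3.31 (SE 0.21, adjusted p = 3.14e-11), -2.36 (SE 0.20, adjusted p = 3.96e-08) and -1.64 (SE 0.19, adjusted p = 1.29e-05). These collections follow the same 21 days of exposure on which INHBB was chosen, so their p are not independent of the choice either. A fit of day 30 alone, with its 6 libraries, gave a log2 fold change of -1.65 with an adjusted p of 0.31, where the range over 8 alternatives was 1.69e-14 to 0.31.

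**Figure D2:**
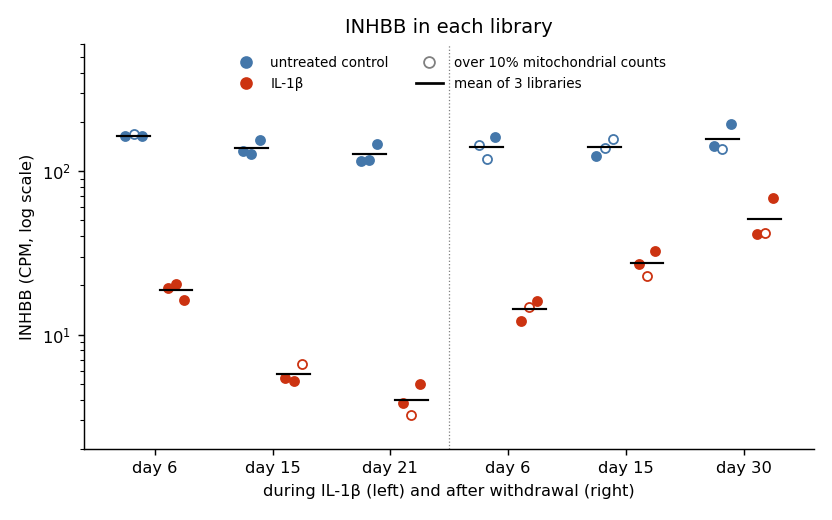
INHBB in CPM on a logarithmic axis (vertical) in each of the 36 libraries by collection (horizontal, exposure left and withdrawal right of the dotted line). Points are libraries, open where over 10% of counts were mitochondrial, and bars are means of 3. The IL-1β libraries fall from 16.3 to 20.4 CPM at day 6 to 3.22 to 4.97 CPM at day 21 and return to 41.4 to 68.6 CPM at day 30 after withdrawal, with all control libraries at 116 CPM or above.

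Ordered by mean, the 6 IL-1β groups ran from day 21 of exposure (4.00 CPM) through day 15 (5.75), day 6 after withdrawal (14.3), day 6 of exposure (18.6) and day 15 after withdrawal (27.4) to day 30 after withdrawal (50.6 CPM). No range of an IL-1β group overlapped the next one in this order. The 6 control groups lay above all of them, from 127 to 165 CPM, and each of their ranges overlapped that of the next. Control cells of the last and the first collection differed by a log2 fold change of -0.07 (SE 0.19, adjusted p = 1), in a comparison where 0.0104% of all genes were called and 0 of the 6 tested here.

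The recovery itself was tested as the difference between the responses at days 30 and 6 after withdrawal, which have separate controls. INHBB gained 1.67 on the log2 scale between them (SE 0.27, adjusted p = 0.0224), the only call among all genes (0.00521%). Both collections follow the exposure on which INHBB was chosen, so this p is not independent of the choice. The call was lost, with an adjusted p above 0.05 and up to 0.202, on leaving out any of 7 of the 12 libraries. Of day 6 these were control replicates 1 and 3 and IL-1β replicates 1 and 2. Of day 30 they were control replicates 1 and 2 and IL-1β replicate 3. Without the 11 libraries of high mitochondrial share the gain was 1.91, with control replicate 3 alone left at day 6, so no p is given. Of 7 alternatives, this fit among them, 6 had an adjusted p under 0.05. For the differences that use the day 21 values, 0.0104% of all genes were called between day 6 and day 21 and 0.626% between day 21 and day 30 after withdrawal. INHBB moved by -1.825 and by 3.34 (SE 0.28) in these, which is part of how it was chosen. The other 5 tested genes were not called in any of these 3 differences.

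INHBB was also compared between libraries of high and low mitochondrial share. It was at 118 to 168 CPM in the 6 control libraries of high share and at 116 to 193 CPM in the other 12. Without all 11 such libraries the log2 fold change was -4.69 at day 15 of exposure (edgeR, adjusted p = 8.49e-11) and -1.60 at day 30 after withdrawal (adjusted p = 0.000182). At days 6 and 15 after withdrawal it was -3.51 and -2.05, against control replicate 3 alone and control replicate 1 alone.

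The region just before each gene's start was read from RefSeq (GRCh38.p14), in which 7 of the 8 genes had an entry. The 250 bases before the start are printed for INHBB, whose RNA fell, for INHBA, whose RNA was scarce, and for FSTL3, the most abundant, because their base composition differs widely. CG dinucleotides are in capitals. The INHBB window is chr2:120345886-120346135 (plus strand), that of INHBA chr7:41703091-41703340 (minus strand) and that of FSTL3 chr19:676142-676391 (plus strand).
INHBB: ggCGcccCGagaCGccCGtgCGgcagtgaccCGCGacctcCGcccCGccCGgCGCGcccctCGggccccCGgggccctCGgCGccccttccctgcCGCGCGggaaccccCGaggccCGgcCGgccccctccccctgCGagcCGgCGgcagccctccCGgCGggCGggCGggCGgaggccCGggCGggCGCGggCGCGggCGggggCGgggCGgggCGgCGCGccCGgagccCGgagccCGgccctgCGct
INHBA: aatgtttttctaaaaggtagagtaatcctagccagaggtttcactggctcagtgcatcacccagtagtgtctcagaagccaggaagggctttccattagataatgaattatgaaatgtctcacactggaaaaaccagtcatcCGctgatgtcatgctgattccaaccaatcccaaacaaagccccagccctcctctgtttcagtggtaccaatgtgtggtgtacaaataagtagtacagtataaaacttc
FSTL3: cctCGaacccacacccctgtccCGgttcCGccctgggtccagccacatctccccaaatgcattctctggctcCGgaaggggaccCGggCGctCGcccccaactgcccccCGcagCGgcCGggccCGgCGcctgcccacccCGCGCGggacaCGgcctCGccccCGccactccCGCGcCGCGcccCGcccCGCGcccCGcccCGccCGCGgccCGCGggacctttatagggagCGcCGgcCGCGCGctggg
The INHBB window held 46 CG dinucleotides at 89.6% G and C, that of FSTL3 36 at 80.0%, and that of INHBA 1 at 42.8%. Of the windows not printed, those of ACVR1B held 48 at 82.8% and 4 at 44.8%. Those of ACVR2B, FST and ACVR2A held 26, 20 and 14. A high CG count was thus not particular to INHBB. Over 35116 promoters of the same length the medians were 11 and 58.0%. On either strand, the E-box letters CAGGTG occur in 17.5% of these promoters, the AP-1 letters TGANTCA in 6.6% and the NF-κB consensus in 5.1%. The INHBB window had 1 NF-κB-like match, GGGAACCCCC, at 150 to 141 bases before the start, and the INHBA and FSTL3 windows had none of the 3. The FST window had an E-box and an AP-1 match that overlap, and 1 of the 2 ACVR1B windows had an E-box match. A match describes these letters only, since no binding or methylation was measured here.

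INHBA encodes the βA subunit of activin A and lies at chr7:41706766-41745432 (minus strand, GRCh37), with 3.0% of its exon bases also in the opposite-strand gene INHBA-AS1. It had 0 to 12 reads per library, 117 in all, with 3 or fewer in 22 libraries. During exposure more reads were counted with IL-1β. At day 6 the controls had 1, 0 and 2 reads and the IL-1β libraries 7, 4 and 8. At day 15 the controls had 1, 1 and 2 reads and the IL-1β libraries 5, 7 and 8. At day 21 the controls had 4, 2 and 7 reads and the IL-1β libraries 5, 9 and 12. As CPM, the groups did not overlap at days 6 and 15 and overlapped at day 21.

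Summed over replicates and scaled to library size, the INHBA ratio of IL-1β to control was 6.01 at day 6 (95% exact interval 1.77 to 31.7), 5.72 at day 15 (1.915 to 23.0) and 2.09 at day 21 (1.04 to 4.43). The intervals cover counting error only. In a fit of all 39471 genes with any count, the log2 fold changes were 2.43 (SE 0.99) and 2.53 (SE 0.92) at days 6 and 15, and the adjusted p were 0.456 and 0.207, so that neither passed the threshold. After withdrawal the summed reads were 7 in control against 3 in IL-1β libraries at day 6, 5 against 7 at day 15 and 6 against 4 at day 30. Every one of these intervals included 1. The highest INHBA level at day 15 (0.828 CPM) and at day 21 (0.674 CPM) came from an IL-1β library of high mitochondrial share, as did a level of 0.51 CPM in a control library of day 15 after withdrawal. The part of this share in the INHBA values was not tested.

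**Figure D3:**
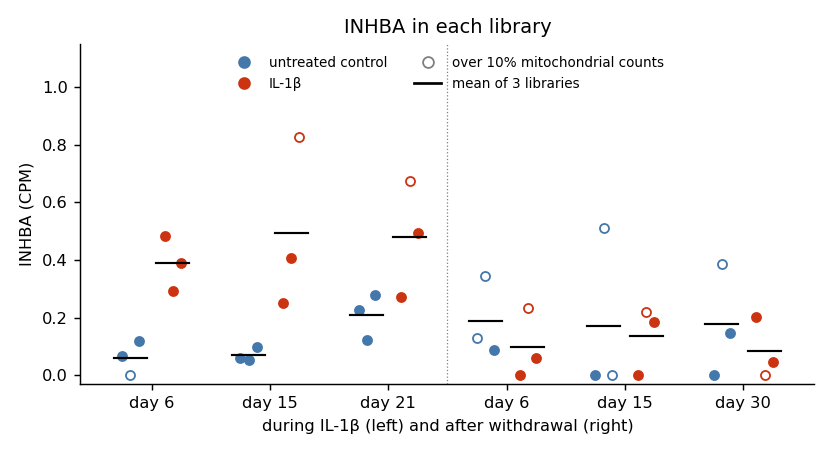
INHBA in CPM (vertical axis, linear) in each of the 36 libraries by collection (horizontal, exposure left and withdrawal right of the dotted line). Points are libraries, open where over 10% of counts were mitochondrial, and bars are means of 3. At days 6 and 15 of exposure the IL-1β libraries (0.250 CPM and above) lie over the controls (0.118 CPM and below), with at most 12 reads behind any point.

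INHBE encodes the βE subunit, best known from liver, and is a known target of the integrated stress response. It lies at chr12:57846106-57853063 (plus strand, GRCh37), with 16.4% of its exon bases in an opposite-strand gene that was not counted. Reads per library ranged from 1 to 40, and the groups overlapped at all 6 time points. At day 15 the controls were at 0.414, 0.271 and 1.98 CPM and the IL-1β libraries at 0.401, 0.232 and 0.207 CPM. A single control library, replicate 3 with 40 reads, thus stood far above the other 5. The log2 fold change of -1.60 at day 15 (SE 0.65, adjusted p = 0.176) did not pass the threshold, and without that library it was -0.21 (adjusted p = 0.905, with 0.0637 to 0.905 over the 6 libraries left out in turn). At the other time points it lay between -0.58 and 0.28 with standard errors of 0.66 to 0.69. In the same library DDIT3, a stress-response transcription factor named after its values were seen, was at 40.2 CPM against 3.90 and 4.28 CPM in the other controls of day 15.

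FSTL3 encodes a secreted inhibitor that binds activins and lies at chr19:676392-683392 (plus strand, GRCh37). At day 15 its controls were at 196, 209 and 213 CPM and the IL-1β libraries at 155, 164 and 29.1 CPM. At day 21 the controls were at 182, 204 and 257 CPM and the IL-1β libraries at 129.5, 127 and 177 CPM. IL-1β was below control in all libraries at both times, and the groups overlapped at the other 4 time points. The log2 fold changes were -0.82 at day 15 (SE 0.55, adjusted p = 0.472) and -0.57 at day 21 (SE 0.55, adjusted p = 0.9), neither past the threshold, and those of the other 4 time points lay between -0.04 and 0.07.

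FSTL3 was low in the libraries of high mitochondrial share in both kinds of cells. It was at 29.1 to 161 CPM (median 88.5) in those 11 libraries and at 129.5 to 257 CPM (median 193) in the other 25. In control cells alone the range was 42.3 to 161 CPM in 6 such libraries and 182 to 257 CPM in the other 12, with no overlap. Without the 11 libraries the log2 fold changes were -0.15, -0.36 and -0.47 at days 6, 15 and 21 and -0.31, -0.195 and -0.34 at days 6, 15 and 30 after withdrawal. The day 21 value then had an adjusted p of 0.0294 at less than a 2-fold change, where the range over 8 alternatives was 0.0294 to 0.956. Those of days 6 and 15 of exposure and day 30 after withdrawal had adjusted p of 0.668, 0.105 and 0.472. With the share as a covariate in all 36 libraries, the log2 fold changes of FSTL3 were -0.46, -0.66 and -0.11 with IL-1β present and -0.51, -0.385 and 0.34 once it was gone (adjusted p of 0.253 to 0.895).

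**Figure D4:**
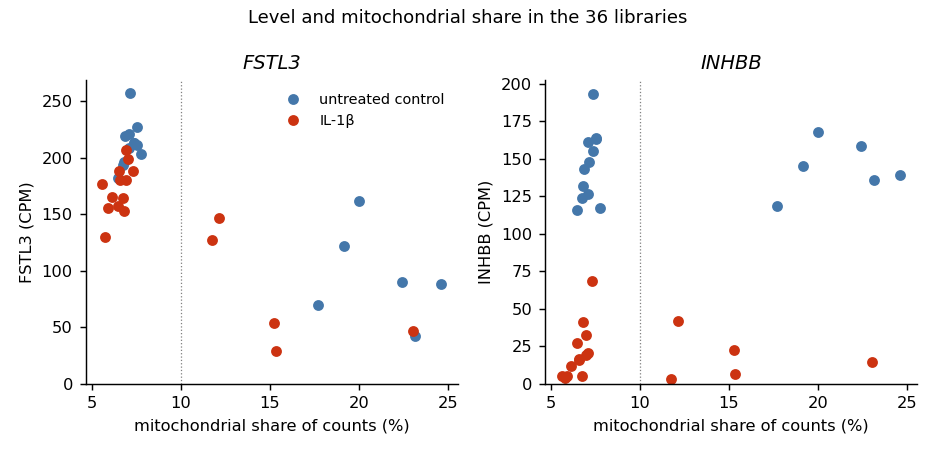
FSTL3 (left) and INHBB (right) in CPM (vertical axes, linear) against the mitochondrial share of counts in percent (horizontal axes) in the 36 libraries. Each point is a library, and the dotted line marks a share of 10%. FSTL3 is at 29.1 to 161 CPM right of the line and at 129.5 to 257 CPM left of it, while the control libraries of INHBB cover 118 to 168 CPM right and 116 to 193 CPM left.

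FST encodes follistatin, the classical activin antagonist, and lies at chr5:52776456-52782964 (plus strand, GRCh37). It was at 0 to 4 reads per library, 49 in all, and at 3 or fewer reads in 33 of 36 libraries. At day 21 the 3 IL-1β libraries had 0 reads and the controls had 2, 1 and 1, and since each library was within 3 reads, the level that 0 reads allow, no fold is given. A change in FST was not detectable at this depth.

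ACVR1B encodes the type I receptor of activins A and B and lies at chr12:52345483-52390862 (plus strand, GRCh37). It was lower with IL-1β in each library at 5 of the 6 time points, but always by less than 2-fold. At day 15 the controls were at 42.1, 43.6 and 64.3 CPM and the IL-1β libraries at 31.0, 36.5 and 27.9 CPM. At day 21 the controls were at 49.2, 46.6 and 53.1 CPM and the IL-1β libraries at 33.6, 31.1 and 41.8 CPM. The log2 fold changes were -0.30, -0.65 and -0.48 at days 6, 15 and 21 and -0.46, -0.29 and -0.03 after withdrawal, with standard errors of 0.20. Its day 15 value had an adjusted p of 0.0477, and the other 5 had 0.212 to 0.978. Leaving out control replicate 3 of day 15 gave -0.43 (adjusted p = 0.396), and the 8 alternatives gave adjusted p of 0.0228 to 0.28. Without the 11 libraries of high mitochondrial share the ACVR1B values were -0.27, -0.57 and -0.38 with IL-1β present and -0.55, -0.27 and -0.20 once it was gone.

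ACVR2B, a type II receptor, lies at chr3:38495381-38534633 (plus strand, GRCh37). At day 6 after withdrawal its controls were at 23.6, 27.6 and 24.1 CPM, against 18.2, 18.4 and 20.6 CPM in cells previously given IL-1β. At day 30 the controls were at 28.8, 30.4 and 29.2 CPM, against 26.5, 24.6 and 26.1 CPM. The groups did not overlap at the 3 time points after withdrawal and overlapped at the 3 during exposure. The log2 fold changes after withdrawal were -0.40 (SE 0.15, adjusted p = 0.229), -0.13 and -0.19, and none of the 6 passed the threshold.

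ACVR2A, the other type II receptor, lies at chr2:148602086-148688395 (plus strand, GRCh37), with 8.4% of its exon bases shared with opposite-strand genes that include ORC4. Its levels ran from 5.71 to 11.8 CPM over the 36 libraries. At day 6 the controls were at 9.74, 10.3 and 9.04 CPM and the IL-1β libraries at 8.35, 8.26 and 7.99 CPM. This was the only time point without overlap. The 6 log2 fold changes lay between -0.33 and 0.24 with adjusted p of 0.714 to 1. ACVR2A was at 7.35 to 11.8 CPM (median 8.98) in the 11 libraries of high mitochondrial share and at 5.71 to 9.84 CPM (median 7.69) in the other 25. Without the 11 libraries its log2 fold changes lay between -0.24 (day 15 after withdrawal) and 0.26 (day 6 after withdrawal), both at collections left without a replicate control. The control levels per kilobase of the 3 receptors depended on the exon length used, with 10.7, 1.60 and 2.2 RPKM for ACVR1B, ACVR2A and ACVR2B over the longest transcript.

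Among the other listed genes of the pathway, calls were few and lay mainly among follistatin-like proteins and target genes. Of 7 further ligand and inhibin genes only GDF11 was tested, and it was not called at any time point (log2 fold changes -0.22 to 0.36). INHA, INHBC, MSTN, NODAL, GDF1 and GDF3 had too few reads. Of 6 further receptors and co-receptors 3 were tested (ACVR1, BMPR2 and TGFBR3), and 0 were called. Their log2 fold changes ran from -0.152 to 0.673 at day 6, 0.176 to 0.924 at day 15 and 0.13 to 0.732 at day 21. After withdrawal they lay between -0.17 and 0.332. TGFBR3, picked out after its values were seen, was at 39.6, 38.7 and 46.0 CPM with IL-1β at day 21. Its controls there were at 25.9, 25.1 and 23.8 CPM.

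Of 9 further antagonists and follistatin-like genes 4 were tested. FSTL1, a secreted glycoprotein with a follistatin-type domain, was at 41.9, 37.5 and 40.1 CPM in control and at 73.0, 77.6 and 64.5 CPM with IL-1β at day 6. By day 21 it was at 108, 103 and 109 CPM, against 42.3, 42.4 and 39.3 CPM in control. Its log2 fold changes were 1.18 at day 15 (SE 0.10, adjusted p = 3.87e-09), 1.36 at day 21 (adjusted p = 2.35e-10), 1.34 at day 6 after withdrawal (adjusted p = 1.32e-09) and 1.06 at day 15 after withdrawal (adjusted p = 2.97e-07), all past both thresholds. At day 6 of exposure (0.85) and day 30 after withdrawal (0.66) the adjusted p were 1.28e-06 and 0.000326 at less than a 2-fold change. FSTL4 fell at 5 of the 6 time points, by log2 fold changes of -1.59 and -1.93 at days 6 and 15 and -1.93, -1.31 and -1.49 after withdrawal (adjusted p of 0.000119 to 0.0244). At day 21 it was -0.905 (adjusted p = 0.0758). Few reads lay behind these FSTL4 values. The IL-1β libraries had 6 to 14 reads at day 15 of exposure and 3 to 13 at day 6 after withdrawal. Their controls had 33 to 70 and 16 to 52. The FSTL4 call at day 15 after withdrawal was lost without control replicate 2 or 3 or IL-1β replicate 1 or 3 (-1.32 to -1.10, adjusted p of 0.0744 to 0.207). It was also lost with no filter on low counts (adjusted p = 0.0914). The FSTL4 log2 fold change there was -1.55 without the 11 libraries rich in mitochondrial reads. Its call at day 30 was lost without control replicate 3 (-1.20, adjusted p = 0.0851). Separate fits of single time points lost the calls after withdrawal of FSTL1 (adjusted p of 0.0927 and 0.0809 at days 6 and 15) and of FSTL4 (0.156, 0.475 and 0.372). BAMBI, a decoy receptor named after its values were seen, was called once, at day 30 after withdrawal, at 3.33, 3.71 and 3.93 CPM against 8.44, 7.59 and 9.15 CPM in control. The separate fit of that time point lost this call too (-1.21, adjusted p = 0.314).

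**Figure D5:**
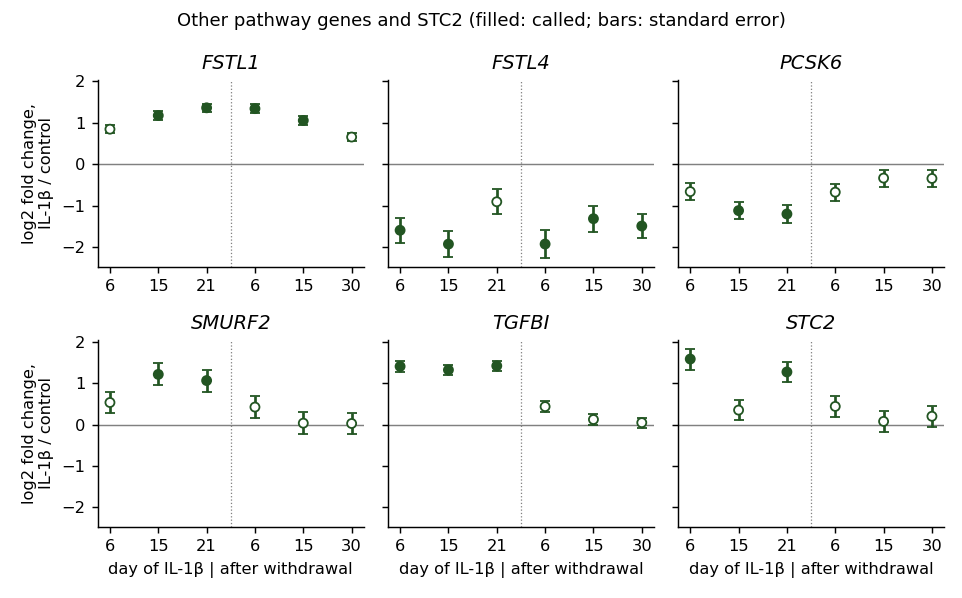
Log2 fold change of IL-1β against untreated control cells (vertical axis) for 5 further pathway genes and the stress-response gene STC2 at the 6 time points (horizontal axis, exposure left and withdrawal right of the dotted line). Filled points passed both thresholds, and bars are standard errors from edgeR. FSTL1 lies between 0.66 and 1.36 and FSTL4 between -1.93 and -0.905, while TGFBI goes from 1.42 at day 21 to 0.05 at day 30 after withdrawal.

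Of 3 proprotein convertases, the enzymes that cleave activin precursors, only PCSK6 was called, with log2 fold changes of -1.12 at day 15 (SE 0.21, adjusted p = 0.000533) and -1.20 at day 21 (SE 0.21, adjusted p = 0.000209). Of 11 tested genes of SMAD2 and SMAD3 signalling only SMURF2, a ubiquitin ligase that acts on SMAD proteins and receptors, was called. It rose by log2 fold changes of 1.21 at day 15 (adjusted p = 0.00348) and 1.06 at day 21 (adjusted p = 0.0103). PCSK6 at day 15 was -0.975 without control replicate 3 and had an adjusted p of 0.0541 in the separate fit of day 15. The SMURF2 call at day 21 was lost without control replicate 3 or IL-1β replicate 2 (adjusted p up to 0.0908). Its log2 fold change there was 0.898 without the 11 libraries rich in mitochondrial reads and 0.853 with the mitochondrial share as a covariate, less than 2-fold in both. SMAD2, SMAD3 and SMAD4 stayed between -0.38 and 0.49 at all 6 time points, with none called. Within that range the mean of SMAD2 was lower with IL-1β at all 6 and that of SMAD3 higher, while SMAD4 went either way. At day 21 SMAD2 was at 110, 110 and 114 CPM with IL-1β, against 140, 141 and 139 CPM in control. SMAD3 was then at 679, 661 and 671 CPM, against 561, 517 and 518 CPM. The median log2 fold change of the convertases was -0.328, -0.354 and 0.318 at days 6, 15 and 21 of exposure and -0.026, 0.038 and -0.282 after withdrawal. That of SMAD signalling lay between -0.066 and 0.034 at the 6 time points.

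Of the 5 SMAD2 and SMAD3 target genes reported here, 1, 1 and 2 were called higher at days 6, 15 and 21 of exposure. None was called at the 3 time points after withdrawal, and 0 were called lower at any of the 6. Between day 21 and day 30 after withdrawal the response of 2 was called lower (lowest -1.543), against 0.626% of all genes called. PMEPA1, named after its values were seen, was at 124, 123 and 88.0 CPM at day 21, against 64.6, 63.5 and 59.2 CPM in control. At day 30 after withdrawal PMEPA1 was at 52.4, 50.4 and 41.6 CPM, against 88.2, 61.5 and 85.2 CPM. TGFBI, a secreted matrix protein, was at log2 fold changes of 1.41, 1.32 and 1.42 during exposure (adjusted p of 8.35e-09 to 2.75e-08) and at 0.43, 0.12 and 0.05 after withdrawal. CCN2, named after its values were seen, was called at day 21 alone (1.13, adjusted p = 0.00144), and was at 0.994 without control replicate 3. Over these 5 the median log2 fold change stood at 0.663, 0.481 and 0.878 with IL-1β present and at 0.434, 0.556 and 0.051 once it was gone. These genes also answer to other signals, and their relation to INHBB was not tested.

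Because INHBE is a stress-response target, 16 genes of the integrated stress response were listed, and 15 were tested. STC2, a secreted glycoprotein hormone, rose at days 6 and 21 (log2 fold changes 1.58 and 1.27, adjusted p = 0.000119 and 0.00115). DDIT3 was called lower at day 15 with a log2 fold change of -1.75, which was 0.23 without control replicate 3, the library where INHBE was high. That call was also lost on leaving out each of the 3 IL-1β libraries in turn, without the 11 libraries rich in mitochondrial reads, in the separate fit of day 15 and with a replicate block within each time point (adjusted p of 0.0567 to 0.474). No gene of this list was called after withdrawal.

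The genes whose level followed a member most closely were found by Pearson's r of log2 CPM over the 36 libraries, which share treatment and depth, so that r is a description. For INHBB they were VAV3 (r = 0.982), ADGRG2 (0.973) and HTR1D (0.967), and the same r over the 25 libraries of low mitochondrial share were 0.985, 0.977 and 0.988. For FSTL3 they were GIPC1 (0.986), FSCN1 (0.982) and MVD (0.981), which dropped to 0.845, 0.747 and 0.813 over the 25. For INHBE the highest were CBS (0.680), TMEM17 (0.679) and RPH3AL-AS1 (0.665). Among the 6 tested members the highest r were 0.70 between FSTL3 and ACVR1B and 0.69 between INHBB and ACVR1B.

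The epithelial label was checked with EPCAM, KRT8, KRT18, KRT19 and CDH1. Of these 5, 4 were tested, and the remaining gene had too few reads, so it does not bear on the label. None of the 5 was at 0 in every library, a mark that a single read is enough to pass. The summed level of the 5 was 2900 to 7624 CPM in control libraries (median 5121) and 899 to 5143 CPM in IL-1β libraries (median 1735). KRT8 alone reached 4818 CPM in a control library and 3182 CPM in an IL-1β library. KRT8, KRT18 and CDH1 were called lower at all 3 time points of exposure, KRT18 and CDH1 also at day 6 after withdrawal, and none of the 4 at days 15 and 30. At those last 2 time points their log2 fold changes were still below 0, from -1.156 to -0.698 and from -1.041 to -0.52 (adjusted p of 0.323 to 0.743). The relation between these markers and INHBB was not tested. The 4 fibroblast markers summed to at most 4.14 CPM, and only COL1A1, a collagen chain, was tested. COL1A1 was called higher at days 6 and 21 of exposure (log2 fold changes 1.02 and 1.24, adjusted p = 0.0441 and 0.00574) and was at 0.81 at day 15 and at 0.27, -0.045 and -0.987 after withdrawal. Between day 21 and day 30 after withdrawal its response differed by -2.22 (adjusted p = 0.00406), and its part in the INHBB values was not tested. Of the remaining lists, the 4 immune markers summed to at most 0.696 CPM with 2 of them at 0. The 2 matched endothelial markers summed to at most 0.348 CPM.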

How the data were processed

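Poly(A) RNA of 36 A549 libraries (12 groups of 3) was prepared with a stranded mRNA kit and read single-end on an Illumina HiSeq instrument. Per the submitters' processing notes, bcl2fastq 2.17, TopHat2 2.0.14, Bowtie2 2.2.5 and HTSeq 0.6.1 were used with the Ensembl GRCh37 genome. The authors deposited raw counts of reads per Ensembl gene, without normalization. The strand setting and annotation release are not given in the sources used here, so genes that overlap on opposite strands may share reads. Reads on no gene (8.48% to 18.64%) and ambiguous reads (2.62% to 4.18%) were left out of library sizes.

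Symbols and GRCh37 positions came from GENCODE v44lift37, matched by identifier for 55665 of 63677 genes. Counts were scaled by TMM (factors 0.777 to 1.09) and filtered with filterByExpr, which kept 19180 of the 39471 genes with any count. The quasi-likelihood model of edgeR 4.0.16 (R 4.3.3) was fitted to the 36 libraries with 12 groups as terms (24 residual degrees of freedom), and Benjamini-Hochberg adjusted p-values were taken over all genes tested. A gene was called at an adjusted p under 0.05 with a log2 fold change beyond 1, the thresholds of the study. CPM use the same scaling, RPKM the union of exons, and log2 CPM a prior count of 2. Intervals on ratios of summed reads are exact at 95%. DESeq2 1.42.0 served an alternative. Tables were handled in pandas 2.3.3 under Python 3.11.15, intervals came from scipy 1.17.1, and figures were drawn with matplotlib 3.10.9. On simulated counts of 19180 genes, 176 of 200 genes changed at day 21 were recovered there, with 9 false calls. In the differences of responses that use day 21, 129 and 136 of the 200 were recovered (against day 6 of exposure and day 30 after withdrawal), with 10 and 9 false calls, and no change was simulated in the difference of days 30 and 6 after withdrawal.

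The 8 members and the lists were chosen with earlier results of these data known. All 8 members were named, and of each other pathway list those called at 2 or more of the 6 time points. A gene of these lists is not reported here and was left out of their counts. For ligands and inhibitors the 3 genes with the highest r were named. The lowest chi-square per gene between 2 replicates of a group was 3.46, so no library was counted as a duplicate. Alternatives are given in the closing section.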

Additional observations from a re-analysis of the deposited data

Results flagged for a closer look

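The response of INHBB to IL-1β differed between collections after withdrawal by more than both thresholds. Between days 6 and 30 after withdrawal the log2 fold change rose by 1.67 (edgeR, adjusted p = 0.0224), from -3.31 to -1.64, and all 3 IL-1β libraries of day 30 lay above all 3 of day 6. It moved by -1.825 between day 6 and day 21 of exposure and by 3.34 between day 21 and day 30 after withdrawal. INHBB was chosen by values that enter both of these differences, so they are listed as a description with no test. The p for days 6 and 30 after withdrawal is not independent of that choice, since both days follow the same exposure. Groups of 3 are too small for a check of single outlying libraries.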

How the results depend on the processing

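At the 4 time points other than days 6 and 21 of exposure, INHBB was called lower under every alternative listed but 1. The exception was the separate fit of day 30 after withdrawal (6 libraries, 4 residual degrees of freedom), where 0 members were called and 1 had an unadjusted p under 0.05. The fit without libraries of high mitochondrial share is counted here only for day 15 of exposure and day 30 after withdrawal. Without a fold change minimum 2 members were called at day 15 of exposure, INHBB and ACVR1B. Without the libraries of high mitochondrial share, INHBB gained 1.907 between days 6 and 30 after withdrawal. Control replicate 3 alone was left at day 6, so no count of calls is given. INHBB moved by -1.699 between days 6 and 21 of exposure in the same fit, where the count of calls was 0. This is a description because INHBB was chosen on these days. Between days 30 and 6 after withdrawal the count of members called was 0 to 1 with single libraries left out. Fewer samples enter these fits, and the cause was not tested otherwise.

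Apart from DDIT3, the log2 fold changes that changed sign belonged to genes not called in that comparison. ACVR2A at day 15 was 0.007 with DESeq2 size factors and 0.001 in the separate fit. FSTL3 at day 6 was 0.004 with no filter. ACVR2B at day 15 was -0.056, FSTL3 -0.195 and -0.336 at days 15 and 30 after withdrawal, and INHBB in control cells 0.048 without libraries of high mitochondrial share. With that share as a covariate FSTL3 at day 15 after withdrawal was -0.385.

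With single libraries left out, the ranges were, during exposure, -0.152 to 0.683 for INHBE, -0.165 to 0.068 for FSTL3 and -0.086 to 0.155 for ACVR2B at day 6, -0.13 to 0.08 for ACVR2A, -0.061 to 0.266 for ACVR2B and -2.213 to 0.229 for DDIT3 at day 15, and -0.072 to 0.022 for ACVR2A at day 21. After withdrawal they were -0.373 to 0.482 for FSTL3 at day 6, -0.234 to 0.546 for FSTL3 at day 15, and -0.408 to 0.344 for FSTL3, -1.044 to 0.19 for INHBE, -0.281 to 0.157 for ACVR1B and -0.043 to 0.096 for ACVR2A at day 30. INHBB in control cells ran from -0.241 to 0.028.

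The replicate numbers were not taken as pairs in the main fit. Over genes, deviations of control and IL-1β libraries of the same number correlated from -0.34 to 0.72 (mean 0.28). Libraries of the same number may therefore share some spread that the main fit leaves out. The replicate block changed no call of a member, with INHBB at -1.648 at day 30 after withdrawal, and moved FSTL3 at day 6 to 0.009. Within each time point it moved FSTL3 at day 15 after withdrawal to -0.01 and ACVR1B at day 30 after withdrawal to 0.02. Over the longest transcript control levels were 10.71 RPKM for ACVR1B, 1.603 for ACVR2A and 2.2 for ACVR2B. INHBA, FST and INHBE are limited by depth, with at most 40 reads in any library.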
